A study of Mus musculus with 18 samples.

Results

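Dendritic cells are the antigen-presenting cells of the spleen that start T cell responses. Type 1 conventional dendritic cells (cDC1) take up dying cells and present their antigens to CD8 T cells, type 2 cells (cDC2) present mainly to CD4 T cells, and plasmacytoid dendritic cells (pDC) release type I interferon when they sense viral nucleic acid. All 3 arise in the bone marrow from progenitors that carry the receptor Flt3, and they are renewed from the blood because they live for only days. Here 10 genes that mark these cells were followed by their gene symbols: Xcr1, Clec9a, Batf3, Itgae and Ly75 for cDC1, Flt3, Zbtb46 and Itgax for conventional dendritic cells as a whole, Siglech for pDC, and Cd209a for cDC2 and monocyte-derived dendritic cells. All 10 were found among the 19320 genes with a unique name in the deposited table, and all 10 were among the 12905 genes that reached an RPKM of 1 in at least 3 libraries and were tested.

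The values were RPKM (reads per kilobase of transcript, relative to all mapped reads of that library) in whole spleens of male ICR mice, an outbred strain, at 10 weeks of age, in 6 groups with 3 libraries in each. Con mice were controls kept on regular diet with saline. A10 mice were given alginate oligosaccharide (AOS), a sugar chain from brown algae, at 10 mg/kg. STZ mice received streptozotocin, a toxin of the insulin-producing beta cells that is used as a model of type 1 diabetes, and STZ-A10 mice received STZ and AOS at 10 mg/kg. A10-FMT and Con-FMT mice received STZ and then a fecal microbiota transplant (FMT) by mouth, from donors dosed with AOS at 10 mg/kg or from control donors, so that STZ was common to 4 of the 6 groups. The donor material was intestinal content pooled within each donor group, so the transplanted mice of a group shared 1 inoculum. The route and the length of AOS dosing in the A10 and STZ-A10 mice are not given in the sources used here. The labels number the libraries within a group but do not say that each is a separate animal, so the p-values measure the spread between these libraries.

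The libraries held the cells of a spleen: every marker gene on the lists for B cells, T cells, NK cells and red pulp macrophages that was in the table reached 1 RPKM in at least 1 library of each group. Globin genes took 10.4% to 42.7% of the summed RPKM, and the number of genes at or above 1 RPKM was between 11532 and 12893. A10-FMT replicate 3 stood apart, with the highest globin share, the fewest genes at or above 1 RPKM and the lowest value of all 18 libraries for 9 of the 10 dendritic cell genes, Zbtb46 being the exception. The 10 genes together summed to 36.7 RPKM in that library, to 56.9 and 66.4 RPKM in the other A10-FMT libraries and to between 52.3 and 79.5 RPKM elsewhere. The A10-FMT comparisons, both transplants against STZ and the closest pairs of the 10 genes are therefore given also without it. In bulk tissue, fewer cells of a type and less RNA per cell cannot be told apart.

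Promoter stretches are shown to place the genes on which the results turn: Siglech and Ly75, which passed a test across all genes, and Xcr1 and Clec9a, whose levels ran most closely together. Each is the RefSeq promoter window on build GRCm38.p6, from 250 bases before to 50 bases after the start of the gene, written 5′ to 3′ on the strand of the gene. The windows lie at chr7:55767934-55768233 (plus strand), chr2:60383224-60383523 (minus strand), chr9:123861980-123862279 (minus strand) and chr6:129408612-129408911 (plus strand), in the order printed. Capitals mark matches, on either strand, to GGAA, the core that ETS factors such as PU.1 bind, to GAAANNGAA, a spacing typical of interferon regulatory factors (IRF), to TGANTCA, the site of AP-1 factors such as Batf3 with its partners, and to CAGCTG or CAGGTG, E-boxes of the kind that the pDC factor Tcf4 binds.
Siglech: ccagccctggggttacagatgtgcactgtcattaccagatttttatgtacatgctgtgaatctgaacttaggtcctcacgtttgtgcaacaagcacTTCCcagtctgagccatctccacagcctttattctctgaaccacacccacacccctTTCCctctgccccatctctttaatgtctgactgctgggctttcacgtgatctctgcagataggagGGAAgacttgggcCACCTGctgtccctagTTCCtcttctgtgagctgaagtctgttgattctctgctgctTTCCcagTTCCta
Ly75: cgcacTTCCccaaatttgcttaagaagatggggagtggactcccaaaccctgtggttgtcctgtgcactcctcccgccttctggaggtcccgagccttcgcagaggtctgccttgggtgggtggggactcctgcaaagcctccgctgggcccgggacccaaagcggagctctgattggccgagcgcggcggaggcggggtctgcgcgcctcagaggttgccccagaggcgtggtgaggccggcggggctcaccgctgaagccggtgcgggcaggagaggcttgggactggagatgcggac
Xcr1: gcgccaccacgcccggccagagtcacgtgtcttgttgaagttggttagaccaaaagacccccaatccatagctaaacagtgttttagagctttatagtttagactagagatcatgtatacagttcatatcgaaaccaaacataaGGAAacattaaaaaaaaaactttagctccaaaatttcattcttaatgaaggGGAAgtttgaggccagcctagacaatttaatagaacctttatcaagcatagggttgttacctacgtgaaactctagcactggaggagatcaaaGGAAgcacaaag
Clec9a: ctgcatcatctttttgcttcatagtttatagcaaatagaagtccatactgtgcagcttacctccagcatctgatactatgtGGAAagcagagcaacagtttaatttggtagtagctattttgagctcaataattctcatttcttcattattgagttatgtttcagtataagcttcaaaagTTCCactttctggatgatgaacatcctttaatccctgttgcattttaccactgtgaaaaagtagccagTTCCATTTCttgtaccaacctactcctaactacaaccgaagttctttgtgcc

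Of the 10 genes, 9 had a promoter in the RefSeq table, and Itgae did not. GGAA was present in 8 of these 9 promoters, all but that of Zbtb46, and in 95.9% of 27025 mouse promoters, with 6 matches in Siglech, 3 each in Xcr1 and Clec9a, and 1 in Ly75, against a median of 3. An E-box of the searched letters was present in the promoters of Zbtb46, Siglech and Itgax and in 32.6% of all promoters. The IRF-type motif was found in Clec9a among the 9, where it overlaps a GGAA match, and in 8.57% of all promoters. TGANTCA was present in Zbtb46 and Itgax and in 7.93% of all promoters. These are matches of letters in a window of 300 bases, not measured binding.

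Because RPKM is scaled by transcript length, levels can be set side by side between the 10 genes. Itgax, the integrin chain CD11c, was the highest with a mean of 18.7 RPKM over the 18 libraries, at percentile 64.4 of the tested genes. Zbtb46 (8.39 RPKM), Cd209a (8.25), Siglech (7.62), Flt3 (6.62) and Batf3 (6.26) lay between percentiles 32.2 and 39.8. Clec9a (3.87 RPKM), Ly75 (2.82), Xcr1 (2.52) and Itgae (2.02) were lowest, down to percentile 12.5, and all 10 genes were at or above 1 RPKM in all 18 libraries. The range over libraries was narrowest for Zbtb46, whose highest value was 1.5 times its lowest, and widest for Siglech, at 8.07 times. No read counts were given. If the commonest low value of olfactory receptor genes stands for a single read, the lowest library of each gene held roughly 42.1 reads for the short Batf3 transcript and 574 for Itgax.

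**Figure D1:**
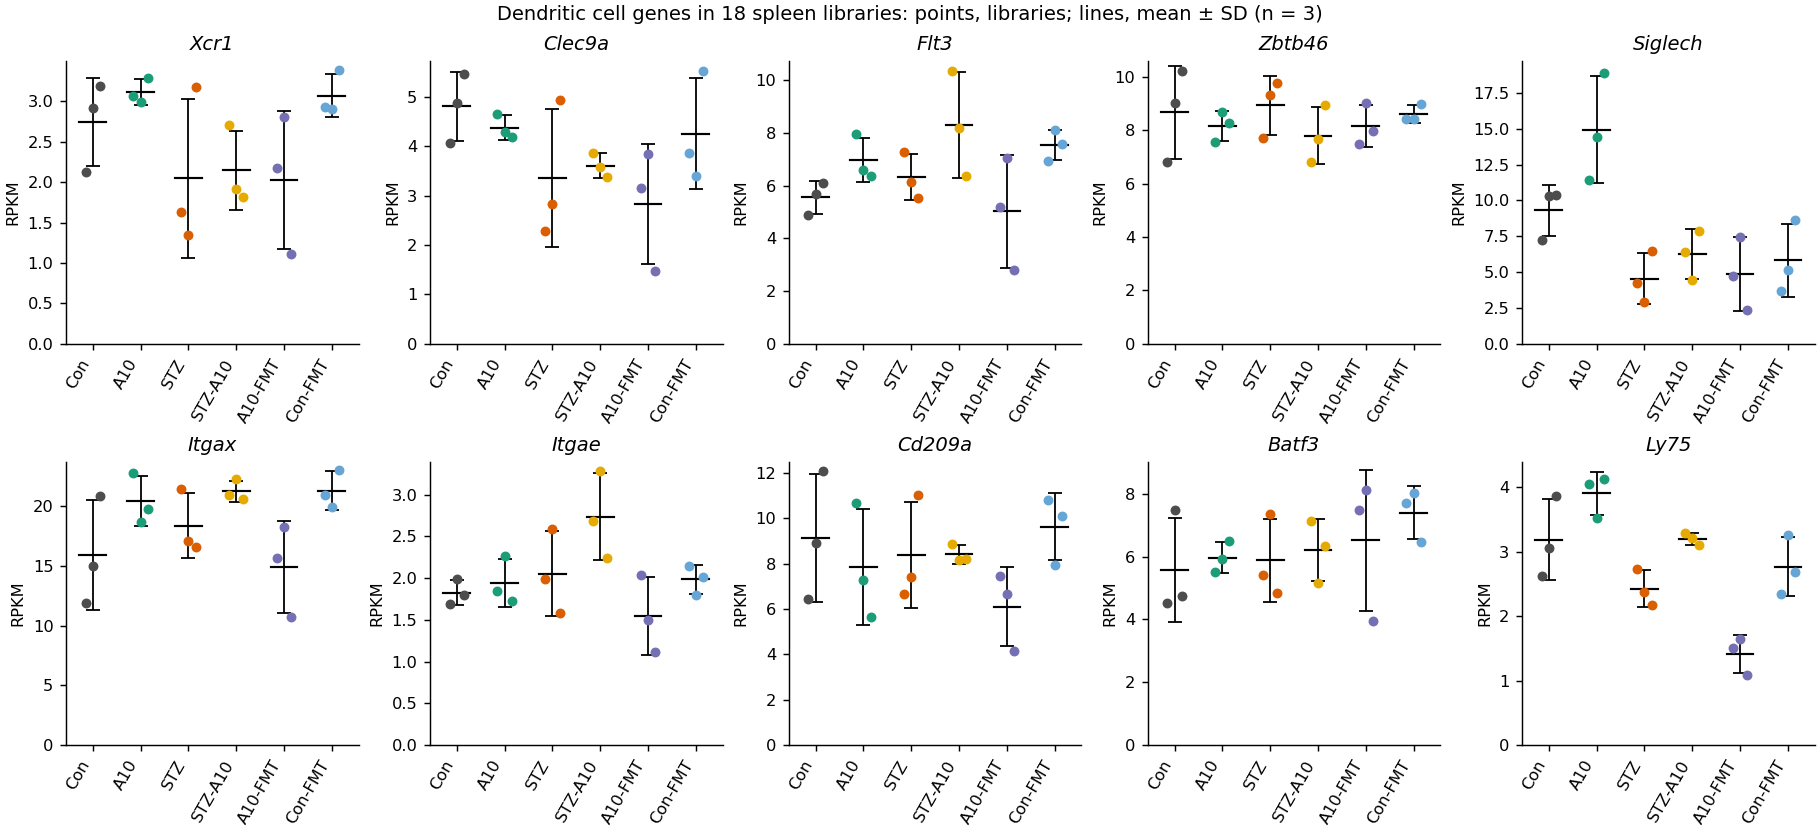
Level of each of the 10 dendritic cell genes (RPKM, linear axis from 0) in the 6 groups, with 1 point per library and black lines for the mean ± SD of 3 libraries. Siglech is highest in the A10 libraries (11.5 to 18.9 RPKM), Ly75 is lowest in the A10-FMT libraries (1.08 to 1.64 RPKM), and Zbtb46 stays between 6.80 and 10.2 RPKM.

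Siglech was lower in the spleens of STZ and STZ-A10 mice than in those of Con and A10 mice. It encodes an inhibitory sialic acid-binding receptor on pDC and lies at chr7:55768178-55778925 on the plus strand. The Con libraries held 7.26, 10.3 and 10.4 RPKM, and the A10 libraries held 11.5, 14.5 and 18.9 RPKM. The STZ libraries held 4.23, 2.93 and 6.46 RPKM, and the STZ-A10 libraries held 6.41, 4.47 and 7.90 RPKM. After transplant, Siglech was 4.72, 7.48 and 2.34 RPKM in A10-FMT, against 3.69, 5.14 and 8.64 RPKM in Con-FMT. Every A10 library was above every library of the 4 groups given STZ, and every STZ library was below every Con library, while the other groups given STZ overlapped with Con. The first held for 2 of the 10 genes and 4.19% of all tested genes, and the second for 1 of the 10 and 7.07%. In order of the means, A10 (14.9 ± 3.74 RPKM; SD, n = 3 here and below) came first, followed by Con (9.31 ± 1.78), STZ-A10 (6.26 ± 1.72), Con-FMT (5.82 ± 2.54), A10-FMT (4.85 ± 2.57) and STZ (4.54 ± 1.79). A10 and Con were the one pair of neighbours in this order whose libraries did not overlap.

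The effect of STZ was asked across AOS status, as the mean of STZ and STZ-A10 minus the mean of Con and A10 on the log2(RPKM + 1) scale, a scale that understates changes of low genes. Siglech fell by 1.03 (SE 0.239, 95% confidence interval -1.54 to -0.52, limma adjusted p = 0.0321), to 0.489 of its level on the RPKM + 1 scale. It was the 1 of the 10 genes past the adjusted threshold of 0.05 in this comparison, which 3.3% of all tested genes passed. In STZ against Con alone, the Siglech difference was -0.93 (SE 0.338, unadjusted p = 0.0146, limma adjusted p = 0.274), and the effects of STZ with and without AOS were not shown to differ (interaction -0.20, 95% interval -1.22 to 0.81, limma adjusted p = 1.00). The A10 minus Con difference of 0.62 (95% interval -0.10 to 1.34) was not past the threshold (limma adjusted p = 0.989). With each library left out in turn, the averaged difference stayed between -1.15 and -0.92, but the adjusted p passed 0.05 when any of 8 libraries was absent. It was 0.0597 and 0.0971 without STZ replicate 1 or 2, 0.0535 and 0.0697 without STZ-A10 replicate 1 or 2, 0.0803 and 0.0520 without Con replicate 2 or 3, and 0.0669 and 0.0806 without A10 replicate 2 or 3. Without A10-FMT replicate 3, which enters this comparison through the shared spread alone, it was 0.0115.

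Xcr1 and Clec9a, the cDC1 chemokine receptor and the cDC1 lectin that senses dead cells, had lower means in the STZ and STZ-A10 groups than in Con and A10, but neither passed the adjusted threshold. Xcr1 (chr9:123852315-123862029, minus strand) was 2.13, 2.91 and 3.19 RPKM in Con, 3.06, 2.99 and 3.29 in A10, 1.63, 1.34 and 3.17 in STZ, and 2.71, 1.91 and 1.81 in STZ-A10. It was 2.17, 2.80 and 1.11 RPKM in A10-FMT, against 2.93, 2.90 and 3.38 RPKM in Con-FMT. STZ replicate 3 reached the level of the Con libraries, so these groups overlapped. The averaged STZ difference of Xcr1 was -0.37 (SE 0.157, unadjusted p = 0.0334, limma adjusted p = 0.223). Clec9a (chr6:129408862-129424763, plus strand) was 4.07, 4.88 and 5.46 RPKM in Con, 4.66, 4.29 and 4.18 in A10, 2.29, 2.84 and 4.94 in STZ, and 3.87, 3.57 and 3.38 in STZ-A10. It was 3.15, 3.84 and 1.48 RPKM in A10-FMT, against 3.86, 3.39 and 5.52 RPKM in Con-FMT. Each STZ-A10 library lay below each Con and A10 library for Clec9a, a pattern whose share over all tested genes was not computed. STZ replicate 3 again lay within the Con range. The averaged STZ difference of Clec9a was -0.34 (95% interval -0.69 to 0.02, limma adjusted p = 0.310).

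Ly75 encodes the endocytic receptor DEC-205 of cDC1 and thymic epithelium and lies at chr2:60292103-60383303 on the minus strand. It was 2.63, 3.06 and 3.87 RPKM in Con, 4.06, 3.53 and 4.13 in A10, 2.74, 2.37 and 2.18 in STZ, and 3.29, 3.21 and 3.10 in STZ-A10. It was 1.51, 1.64 and 1.08 RPKM in A10-FMT, against 2.35, 3.26 and 2.69 RPKM in Con-FMT. Every A10-FMT library was below every other library, which held for 1 of the 10 genes and for 2.6% of all tested genes. In order of the means, A10 (3.91 ± 0.328 RPKM) was followed by STZ-A10 (3.20 ± 0.0954), Con (3.19 ± 0.630), Con-FMT (2.77 ± 0.460), STZ (2.43 ± 0.285) and A10-FMT (1.41 ± 0.293). Neighbours in this order overlapped except at both ends, where A10 was clear of STZ-A10 and STZ was clear of A10-FMT. All A10-FMT libraries were below all STZ libraries for 1 of the 10 genes and for 12.1% of all tested genes. Every A10 library was above every library given STZ for 2 of the 10 genes, Siglech and Ly75, and for 4.19% of all tested genes.

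A test of any difference among the 6 groups was passed by Ly75 (moderated F = 14.1, limma adjusted p = 0.0279), 1 of the 10 genes, against 0.449% of all tested genes. With an unadjusted p under 0.05, Ly75 and Siglech (limma adjusted p = 0.0949) made 2 of the 10, against 22.6%. None of the pairs of groups that were compared one by one passed the adjusted threshold for Ly75. A10-FMT and A10, whose Ly75 means lay furthest apart, were not compared as a pair. A10-FMT minus Con-FMT was -0.64 (SE 0.134, unadjusted p = 0.000209, limma adjusted p = 0.204), and A10-FMT minus STZ was -0.51 (SE 0.134, unadjusted p = 0.00154, limma adjusted p = 0.152). STZ-A10 minus STZ was 0.30 (SE 0.134, unadjusted p = 0.0427, limma adjusted p = 0.996), and the averaged STZ difference was -0.25 (SE 0.0945, unadjusted p = 0.0176, limma adjusted p = 0.162). Without A10-FMT replicate 3 the first of these differences was -0.54 and the second -0.41. Leaving out STZ replicate 2 took the adjusted p of the F test to 0.0552, leaving out A10-FMT replicate 1 took it to 0.0758, and leaving out A10 replicate 1 or 3 took it to 0.0858 or 0.0817.

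Flt3, Zbtb46 and Itgax were taken here for conventional dendritic cells as a whole, though Flt3 and Itgax are not confined to these cells. Flt3 (chr5:147330741-147400489, minus strand), the receptor for the growth factor that sustains dendritic cells and also a receptor of early blood progenitors, was 4.88, 5.68 and 6.10 RPKM in Con and 7.95, 6.61 and 6.38 in A10. It was 7.28, 6.13 and 5.55 RPKM in STZ, 10.4, 8.20 and 6.35 in STZ-A10, 5.20, 7.07 and 2.80 in A10-FMT, and 6.95, 8.11 and 7.57 in Con-FMT. All A10 libraries were above all Con libraries, but the difference of 0.28 (95% interval -0.18 to 0.75) was not past the threshold (limma adjusted p = 0.989). Such a gap between A10 and Con was seen for 2 of the 10 genes, Flt3 and Siglech, and for 11.7% of all tested genes. Itgax (chr7:128129547-128150657, plus strand), which macrophages also carry, was 11.9, 15.01 and 20.9 RPKM in Con, 22.8, 18.7 and 19.8 in A10, 21.5, 17.1 and 16.6 in STZ, and 21.0, 22.3 and 20.6 in STZ-A10. It was 15.7, 18.3 and 10.7 RPKM in A10-FMT, against 21.0, 19.96 and 23.1 RPKM in Con-FMT. The Con libraries spanned most of the range seen in the other groups. Zbtb46 (chr2:181387762-181459426, minus strand), a transcription factor of conventional dendritic cells and their precursors, had group means between 7.80 ± 1.07 RPKM in STZ-A10 and 8.94 ± 1.10 RPKM in STZ, and all 6 groups overlapped. Which cells of the spleen its level came from was not tested. Its averaged STZ difference was -0.0079 with a 95% interval of -0.21 to 0.20.

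Cd209a, Batf3 and Itgae showed no difference past the threshold in any comparison. Cd209a (chr8:3743397-3748984, minus strand), the lectin DC-SIGN of monocyte-derived dendritic cells and some cDC2, was 6.44, 8.91 and 12.1 RPKM in Con, 10.7, 7.26 and 5.64 in A10, 6.66, 7.41 and 11.0 in STZ, and 8.87, 8.14 and 8.20 in STZ-A10. It was 7.47, 6.68 and 4.16 RPKM in A10-FMT, against 10.8, 7.96 and 10.1 RPKM in Con-FMT. Within Con, the libraries spread as widely as they did between groups, and A10-FMT was clear of Con-FMT and STZ-A10 while all other pairs of groups overlapped. All A10-FMT libraries were below all Con-FMT libraries for 4 of the 10 genes and for 23.9% of all tested genes. Batf3 (chr1:191097847-191108945, plus strand), the transcription factor required for cDC1 development, had group means from 5.58 ± 1.66 RPKM in Con to 7.40 ± 0.833 RPKM in Con-FMT. Itgae (chr11:73090583-73147446, plus strand), the integrin chain CD103 that cDC1 share with tissue-resident T cells, was lowest in A10-FMT (1.55 ± 0.467 RPKM) and highest in STZ-A10 (2.73 ± 0.522 RPKM). Its averaged STZ difference was 0.22 (95% interval -0.01 to 0.45), and that of Batf3 was 0.06 (95% interval -0.27 to 0.39).

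**Figure D2:**
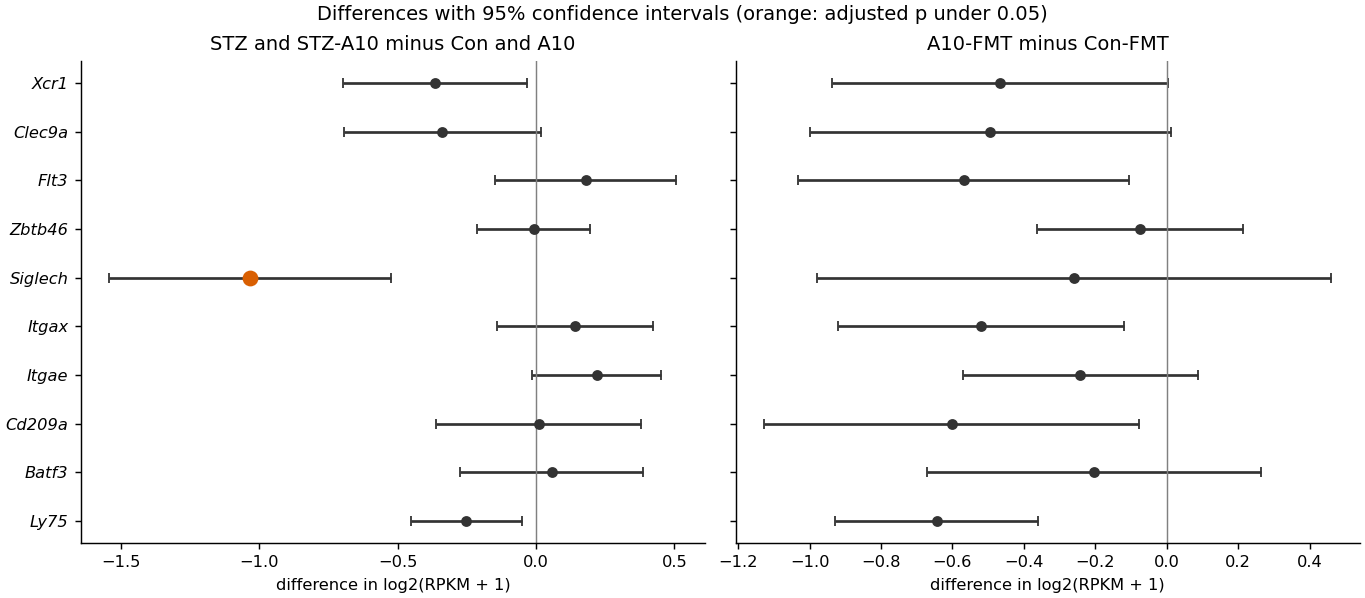
Differences in log2(RPKM + 1) with 95% confidence intervals for the 10 genes, for STZ and STZ-A10 minus Con and A10 on the left and for A10-FMT minus Con-FMT on the right, with orange for a limma adjusted p under 0.05. Siglech on the left (-1.03) is the orange point, and on the right all 10 points lie below 0, as far as -0.64 for Ly75.

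Over the 10 genes, the averaged STZ difference had a median of 0.0011, with 5 genes above 0 and 5 below, beside -0.02 over all tested genes. An unadjusted p under 0.05 was reached by 3 of the 10, Siglech, Xcr1 and Ly75, and by 18.2% of all tested genes. All 3 were lower after STZ, and 11.2% of all tested genes were lower at that p. In STZ against Con, 0 of the 10 passed the adjusted threshold, against 0.163% of all tested genes, and 1 (Siglech) had an unadjusted p under 0.05, against 11.1%. For the interaction of STZ and AOS, none of the 10 had an adjusted (0.0% of all tested genes) or an unadjusted p under 0.05 (2.86%).

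AOS by itself gave no called difference in these genes with limma. In A10 against Con, 0 of the 10 passed the adjusted threshold, against 0.00775% of all tested genes, and 0 had an unadjusted p under 0.05, against 5.25%. In STZ-A10 against STZ, 0 of the 10 passed the adjusted threshold, against 0.00775%, and 1 (Ly75, higher in STZ-A10) had an unadjusted p under 0.05, against 2.93%. The 95% intervals were wide for Siglech, from -0.10 to 1.34 in the first and from -0.31 to 1.13 in the second.

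The transplants were compared with STZ and with each other. The comparison with each other sets 1 pool of donor material against another. Its p-values do not measure the spread between pools, so it cannot say whether the donor's treatment mattered. In A10-FMT against STZ, 0 of the 10 passed the adjusted threshold, against 0.00775% of all tested genes, and 1 (Ly75) had an unadjusted p under 0.05, against 17.2%. In Con-FMT against STZ the numbers were 0 (0.00775%) and 0 (5.24%), and for both transplants together against STZ they were 0 (0.00775%) and 0 (7.96%). These comparisons share the STZ libraries. Siglech was 0.03 above STZ in A10-FMT (95% interval -0.69 to 0.75) and 0.29 above STZ in Con-FMT (95% interval -0.43 to 1.00). Without A10-FMT replicate 3, the Siglech difference of A10-FMT from STZ was 0.38 (SE 0.327, unadjusted p = 0.264, limma adjusted p = 0.784). In the fit without that library, 1 of the 10 genes had an unadjusted p under 0.05 in A10-FMT against STZ (Ly75, against 7.85% of all tested genes). For both transplants against STZ it was also 1 of the 10, Batf3 at 0.34 (SE 0.154, unadjusted p = 0.0455, limma adjusted p = 0.49), against 9.96% of all tested genes.

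In A10-FMT against Con-FMT, all 10 genes were lower in A10-FMT, with a median difference of -0.48 beside -0.17 over all tested genes, 71.0% of which were below 0. None of the 10 passed the adjusted threshold, and neither did any tested gene (0.0%). With an unadjusted p under 0.05, 4 of the 10 were lower, against 23.6% of all tested genes, or 20.1% when only lower genes are counted. Besides Ly75 these were Itgax with -0.52 (SE 0.188, unadjusted p = 0.0143), Cd209a with -0.60 (SE 0.247, unadjusted p = 0.0271) and Flt3 with -0.57 (SE 0.217, unadjusted p = 0.0191), each with a limma adjusted p of 0.204. Without A10-FMT replicate 3, these differences were -0.31 for Itgax, -0.39 for Cd209a and -0.27 for Flt3, 8 of the 10 genes (all but Siglech and Batf3) were below 0 with a median of -0.22, and Ly75 was the 1 gene left with an unadjusted p under 0.05. In that fit the median over all tested genes was -0.09, and 3.6% of them had an unadjusted p under 0.05. The shift of all tested genes was removed by centring each library on its median, after which 9 of the 10 (all but Zbtb46) were below 0, with a median of -0.31. The summed RPKM of the 9 B cell genes ranged from 603 to 2056 over the A10-FMT libraries and from 2218 to 2369 over the Con-FMT libraries, that of the T cell genes 95.7 to 352 and 390 to 425, and the globin share was 28.3% to 42.7% and 21.8% to 32.0%. All 9 B cell genes were lower in A10-FMT (median difference -0.77, 3 with an unadjusted p under 0.05). So were all 10 T cell genes (median -0.97, all 10 with an unadjusted p under 0.05). All 9 erythroid genes were higher in A10-FMT (median difference 0.62, 1 with an unadjusted p under 0.05), and all 7 NK cell genes were lower (median -0.53, 4 with an unadjusted p under 0.05), with 23.2 to 35.7 RPKM in sum against 45.4 to 58.6. Of 8 liver genes, 7 were higher in A10-FMT, each with an unadjusted p under 0.05 (median of the 8 genes 2.27), with summed levels of 86.6 to 338 RPKM against 8.02 to 36.9 for Con-FMT. The part of these cells in the differences was not tested.

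Siglech was also set against Itgax within each library, a ratio that does not depend on the scaling of the library and that was chosen after the values were seen, so no test is given. The Con libraries spanned 0.495 to 0.688 and the A10 libraries 0.503 to 0.954. Among the groups given STZ, the STZ libraries spanned 0.171 to 0.390, the STZ-A10 libraries 0.201 to 0.383, the A10-FMT libraries 0.219 to 0.409 and the Con-FMT libraries 0.176 to 0.374. The 6 libraries without STZ and the 12 with STZ did not overlap in this ratio, and A10-FMT replicate 3, low in both genes, lay inside the range of the other STZ-given libraries at 0.219. The ratio of Xcr1 to Itgax did overlap, with 0.153 to 0.194 for Con, 0.134 to 0.166 for A10, 0.0758 to 0.191 for STZ, 0.0857 to 0.129 for STZ-A10, 0.104 to 0.153 for A10-FMT and 0.140 to 0.146 for Con-FMT. For Ly75 over Itgax the ratio spanned 0.185 to 0.221 for Con, 0.178 to 0.208 for A10, and 0.0897 to 0.163 for the 4 groups given STZ, with A10-FMT lowest at 0.0897 to 0.101. The libraries with and without STZ thus did not overlap for Ly75 over Itgax either.

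**Figure D3:**
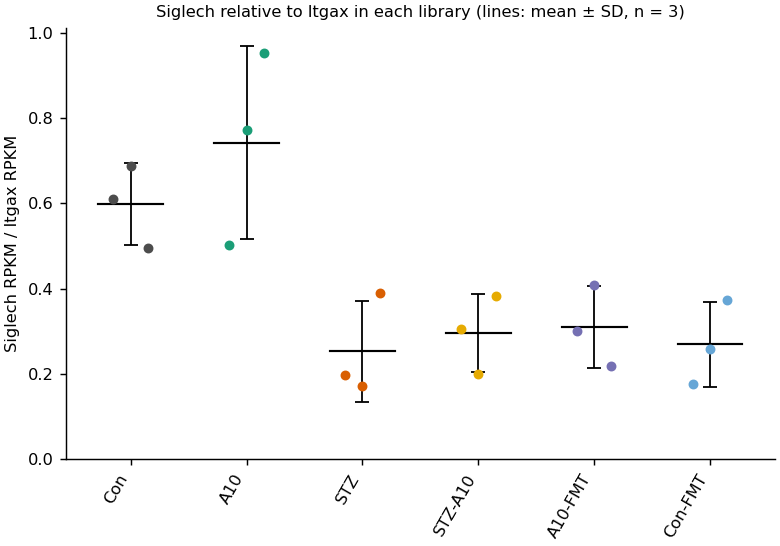
Siglech RPKM divided by Itgax RPKM in each library (linear axis from 0, no unit) in the 6 groups, with 1 point per library and black lines for the mean ± SD of 3 libraries. The Con and A10 libraries lie between 0.495 and 0.954 and the 12 libraries given STZ between 0.171 and 0.409. The ratio was chosen after the values were seen.

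The other genes of each dendritic cell type were taken from lists written from general knowledge. Of 12 further pDC genes, 2 passed the adjusted threshold for the averaged STZ difference, against 3.3% of all tested genes, and both were lower. Their median was -0.41, with 10 of 12 below 0, beside -0.02 and 55.2% below 0 over all tested genes. In STZ against Con the median of these 12 was -0.09, with 8 below 0 and 0 past the adjusted threshold (0.163% of all tested genes). In A10 against Con it was 0.27, with 11 above 0, beside 0.05 and 37.5% below 0 over all tested genes. There 3 of the 12 had an unadjusted p under 0.05, against 5.25% of all tested genes. The averaged difference of the pDC genes therefore includes their higher A10 levels. Also in A10 against Con, all 10 T cell and all 9 B cell genes were above 0. All 9 neutrophil, all 9 erythroid and all 7 platelet genes were below 0. Cox6a2, a muscle-type subunit of cytochrome oxidase that pDC also express, was 4.33, 4.54 and 5.28 RPKM in Con and 3.73, 6.01 and 6.21 in A10. It was 1.91, 0.920 and 1.84 RPKM in STZ and 1.63, 0.410 and 2.38 in STZ-A10. Both transplant groups stayed low, with 1.42, 1.98 and 0.610 RPKM in A10-FMT, and 2.49, 1.75 and 1.92 RPKM in Con-FMT. No library given STZ reached a Con or A10 library, a pattern whose share over all tested genes was not computed. Cox6a2 fell by 1.30 (SE 0.206, limma adjusted p = 0.00576) and passed the threshold in each of the 18 fits with a library left out. Cd300c, an activating receptor of myeloid cells and pDC, fell by 0.80 (SE 0.160, limma adjusted p = 0.0168, or 0.0553 without STZ replicate 2), with a range of 1.2 to 1.74 RPKM among the Con libraries and 2.30 to 3.20 among those of A10, against 0.620 to 1.07 for STZ and 0.470 to 0.730 for STZ-A10. After transplant it was 0.950, 2.21 and 0.600 RPKM in Con-FMT, where replicate 2 lay above every Con library, and 0.150, 0.870 and 0.540 RPKM in A10-FMT. Among the libraries given STZ, only STZ replicate 1 and Con-FMT replicate 2 reached 1 RPKM. Cd300c thus met the filter of 3 libraries through the groups where it was high, though it was also called with no filter. Runx2, a transcription factor of pDC, was at -0.46 (limma adjusted p = 0.0557), Spib at -0.54 (0.237) and Tcf4, the pDC lineage factor, at -0.10 (0.800). Klk1, a kallikrein that pDC share with the exocrine pancreas, was at 1.80 (0.207). With a library left out, between 1 and 4 of the 12 passed the threshold, with the lowest count without STZ replicate 2 and the highest without A10-FMT replicate 2 or 3.

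Of 12 further cDC1 genes, 1 passed the threshold for the averaged STZ difference, against 3.3% of all tested genes, and their median was 0.02. Gcsam, a signalling adaptor that germinal centre B cells also express, fell by 1.05 (SE 0.217, limma adjusted p = 0.0192), from 9.84 ± 3.18 RPKM in Con and 11.3 ± 1.53 in A10 to 3.65 ± 0.959 in STZ and 5.61 ± 0.808 in STZ-A10. The transplant groups overlapped with Con, at 9.65 ± 3.08 RPKM (6.66 to 12.8) for Con-FMT and 6.03 ± 3.39 RPKM (3.15 to 9.77) for A10-FMT. Its adjusted p was 0.0577, 0.0537, 0.0568 and 0.0530 without STZ replicate 2, STZ-A10 replicate 3, Con replicate 2 and A10 replicate 2. Id2, a transcriptional inhibitor that cDC1 require, was at 0.39 (limma adjusted p = 0.083) and was past the threshold in 8 of 30 alternatives. Irf8, the transcription factor on which cDC1 depend, was at -0.09 (limma adjusted p = 0.864). Of 10 tested genes of mature dendritic cells, 1 passed, against the same 3.3%. Il12b, the p40 chain of interleukin 12 and interleukin 23, fell by 0.47 (SE 0.12, limma adjusted p = 0.0474), with 0.830 ± 0.308 RPKM in Con, 2.29 ± 0.483 in A10, 0.710 ± 0.347 in STZ and 0.840 ± 0.167 in STZ-A10. The Con libraries of Il12b (0.570 to 1.17 RPKM) overlapped with those of STZ. The A10 libraries (1.87 to 2.82 RPKM) lay above every other library, a pattern whose share over all tested genes was not computed. The call was kept in 4 of the 18 fits with a library left out. Over the 10 mature dendritic cell genes the median was -0.28 for the averaged difference and -0.07 in STZ against Con. In A10 against Con it was 0.43, beside 0.05 over all tested genes, with all 10 above 0 and 4 with an unadjusted p under 0.05, against 5.25% of all tested genes.

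None of the 12 further cDC2 genes passed the threshold for the averaged STZ difference, nor did any of the 8 tested growth factor and receptor genes, against 3.3% of all tested genes. An unadjusted p under 0.05 was reached by 1 and 2 of them, against 18.2%. Their medians were -0.07 and 0.09. In the cDC2 list, the highest genes were Dtx1, a Notch target that marginal zone B cells also express, at 65.97 ± 19.4 RPKM in Con and 78.0 ± 27.5 in STZ, and Sirpa, an inhibitory receptor shared with macrophages, at 54.1 ± 0.824 in Con and 63.8 ± 11.0 in STZ. In the growth list they were Csf1r, the receptor for macrophage colony-stimulating factor, at 53.7 ± 6.51 and 70.2 ± 7.88 RPKM, and Stat3, which signals below Flt3, at 35.9 ± 4.64 and 35.4 ± 3.29 RPKM. The averaged STZ difference of Csf1r was 0.37 (SE 0.106, limma adjusted p = 0.0722). It was past the threshold in 9 of 30 alternatives, which include quantile normalization, median centring, scaling without globin genes and the fit without A10-FMT replicate 3. Flt3l, the Flt3 ligand, differed by 0.06 (limma adjusted p = 0.932). In the test among the 6 groups, Cox6a2 and Il12b passed (limma adjusted p = 0.0478 for both), against 0.449% of all tested genes, and in all other comparisons no gene of the 5 lists did with limma.

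**Figure D4:**
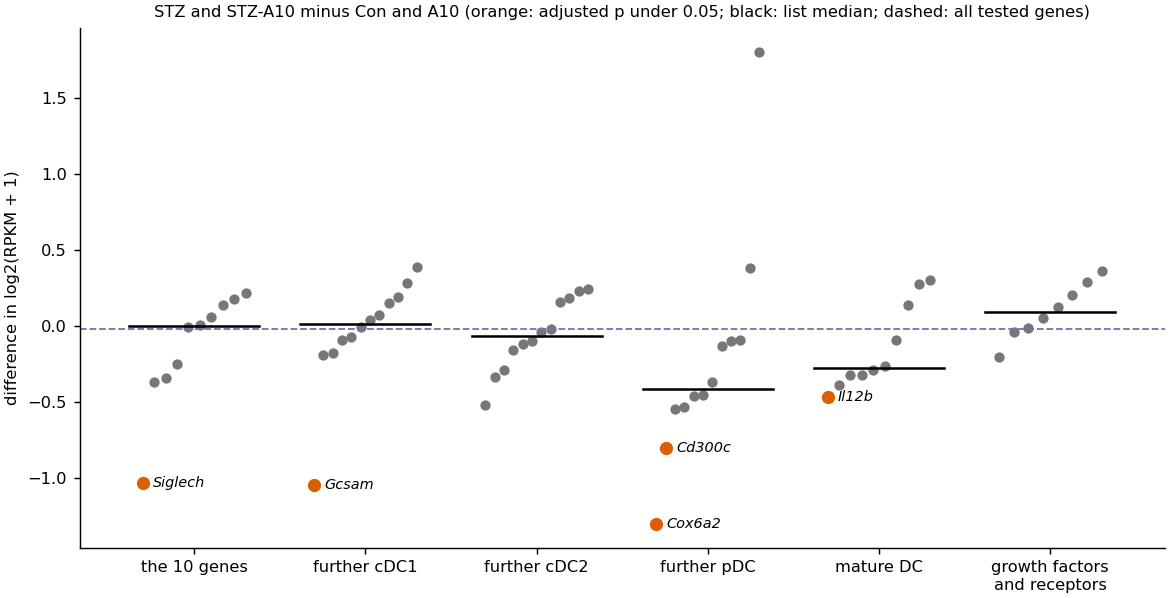
Averaged STZ difference in log2(RPKM + 1) for the 10 genes and for the further genes of 5 dendritic cell lists, with 1 point per gene, a black line for the list median, a dashed line for the median of all tested genes and orange for a limma adjusted p under 0.05. The median of the further pDC list lies at -0.41 with Cox6a2 (-1.30) and Cd300c (-0.80) below it, and the 5 orange points are all below 0.

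Markers of other cells moved in the averaged STZ comparison. Over all tested genes, 3.3% passed its adjusted threshold and 18.2% had an unadjusted p under 0.05. Of 7 NK cell genes, which include Gzma, Eomes, Ncr1 and Klra8, 4 passed the threshold and all 7 were below 0, with summed levels of 50.4 to 91.1 RPKM among Con libraries, 60.6 to 102 among A10, 23.6 to 41.3 among STZ and 29.7 to 51.5 among STZ-A10 libraries. The lists that follow are given in the same order of groups. Of 7 platelet genes, 4 passed and all 7 were below 0 (785 to 1951, 692 to 1066, 229 to 683 and 429 to 695 RPKM), and of 8 liver genes, 6 passed and all 8 were below 0 (19.4 to 228, 13.8 to 70.3, 5.07 to 6.23 and 4.55 to 13.4 RPKM). The liver genes Apoa1, Apoa2, Ttr, Fgb, Fga and Ahsg stayed under 1 RPKM in every STZ library, and all of these but Apoa2 in every STZ-A10 library. They thus met the filter of 3 libraries through other groups. Of 10 red pulp macrophage genes, 3 passed and all 10 were above 0 (653 to 845, 765 to 880, 922 to 962 and 842 to 1325 RPKM). Of 9 exocrine pancreas genes, 2 passed and all 9 were above 0 (22.4 to 1841, 45.8 to 715, 1046 to 4609 and 4857 to 7423 RPKM). None of the 10 T cell genes passed, but all 10 were below 0 with a median of -0.49, 4 of them with an unadjusted p under 0.05 (256 to 453, 454 to 501, 226 to 338 and 241 to 369 RPKM). None of the 9 neutrophil genes passed, with 8 below 0, a median of -1.40 and 7 with an unadjusted p under 0.05 (791 to 14944, 554 to 1417, 423 to 1695 and 450 to 736 RPKM). Of 9 B cell genes none passed and 6 were below 0 (median -0.22), and of 9 erythroid genes 1 passed, which was higher (median 0.05). Their part in the Siglech result was not tested.

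Across the 18 libraries, the level of Xcr1 tracked that of Clec9a. On the log2(RPKM + 1) scale, Pearson's r was 0.874 and Spearman's rho 0.882 (permutation p = 1e-05 for both, the smallest that 100000 permutations give, adjusted to 0.000225 and 0.00045 over the 45 pairs of the 10 genes), and r was 0.798 without the 2 libraries farthest from the median of Xcr1, 0.816 without A10-FMT replicate 3 and 0.889 within groups. Flt3 and Itgax came next, with r = 0.859 and rho = 0.826 (adjusted permutation p = 0.000225 and 0.000675), 0.846 without the 2 farthest libraries, 0.760 without A10-FMT replicate 3 and 0.741 within groups. Of the 45 pairs, 41 had r above 0, 12 passed an adjusted permutation p of 0.05 by Pearson's r, and the median r was 0.367. Fewer pairs passed by Spearman's rho. Without A10-FMT replicate 3, 32 of the 45 had r above 0 and the median r was 0.132. All points share the library's scaling, and the globin share differed between libraries. The matching share over pairs of all tested genes was not computed, so the counts of pairs have no baseline. Trmt1l ran closer to Xcr1 (r = 0.961) than Clec9a did, and Krba1 ran closer to Flt3 (r = 0.943) than Itgax did. Over all 18 libraries, Siglech had r = 0.724 with Xcr1 and 0.719 with Clec9a.

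**Figure D5:**
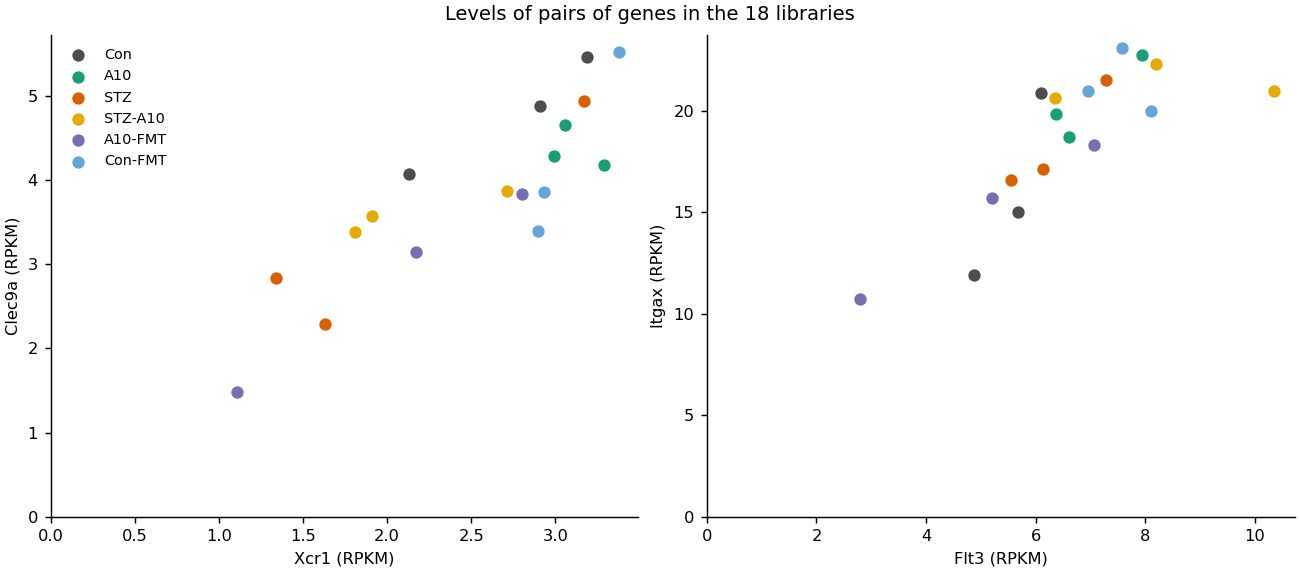
RPKM of Clec9a against Xcr1 on the left and of Itgax against Flt3 on the right (linear axes from 0), with 1 point per library coloured by group. Both clouds rise together (r = 0.874 and 0.859 over 18 libraries on the log2(RPKM + 1) scale), and A10-FMT replicate 3 is the lowest point on each axis.

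Among all 12905 tested genes, those most like each of 9 of the 10 by Pearson's r of log2(RPKM + 1) over the 18 libraries are given as a description, with no test. For Siglech these were Ccdc88a (r = 0.930), Cxcl10 (0.910), an interferon-induced chemokine, and Snx10 (0.905). For Ly75 they were Slc39a6 (0.937), Ldlrad4 (0.934) and Pik3cg (0.932). For Xcr1 they were Trmt1l (0.961), Cstf3 (0.924) and Il27ra (0.892), and for Clec9a they were Prkab2 (0.891), Xcr1 itself (0.874) and Tmod4 (0.872). Clec9a was the 1 gene of these 9 with another of the 10 among its closest 3. Flt3 ran with Krba1, Ankrd23 and Prickle3 (0.936 to 0.943), Itgax with Zxdb, Pcnx3 and Sbf1 (0.913 to 0.917), and Itgae with Cpt1a, Trio and Fam20a (0.827 to 0.872). Cd209a was closest to Tbc1d30, Cxadr and Amz1 (0.825 to 0.833), and Batf3 to Tox2, Mbd3 and Gpr4 (0.739 to 0.816).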

How the data were processed

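Spleen RNA of 18 libraries, 6 groups of 3, was sequenced from poly(A)-enriched RNA. The deposited values are RPKM computed by the authors, whose methods name SOAPaligner and reference genes. The submitters' processing notes name Bowtie 0.12.2 and mm10 instead, and which made the table is not given in the sources used here. Read counts were not used here, so library depth is unknown and no interval for counting error is given. Groups come from the sample labels. Of 19326 lines, 6 under 3 repeated names were left out, and 0 sample columns were unused.

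Genes at 1 RPKM or more in at least 3 libraries were tested on log2(RPKM + 1) with limma 3.58.1 (trend, R 4.3.3), in 1 model of 18 libraries with a coefficient per group, two-sided, Benjamini-Hochberg adjusted over 12905 genes. The code was tested on simulated data. The alternatives were other scalings, filters, pseudocounts, weights, a block and left-out libraries. All 10 genes are named, with differences in full where the unadjusted p was under 0.05. Further genes are named where past the adjusted threshold, otherwise the 2 highest per list. A few others, such as Runx2, Spib, Tcf4, Klk1, Id2, Irf8 and Flt3l, were named after their values were seen. The 10 genes, the lists and the comparisons were chosen with earlier results of these data known. Gene positions are from GENCODE M21 (GRCm38), promoters from RefSeq (GRCm38.p6, 1 per gene). The genes most like Zbtb46 are not reported here.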

Additional observations from a re-analysis of the deposited data

How the results depend on the processing

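Of the differences of the 10 genes in the 9 comparisons, the 10 with an unadjusted p under 0.05 kept their direction under all alternatives, and 39 of the other 80 turned under at least 1. In A10-FMT vs Con-FMT, Siglech (-0.26) was 0.09 and Batf3 (-0.20) was 0.07 without A10-FMT replicate 3, and Zbtb46 (-0.07) was 0.10 under median centring. In A10-FMT vs STZ, Clec9a (-0.20) was 0.09 without that library. Siglech's averaged STZ difference ranged from -1.40 to -0.92 and was past the threshold in 20 of 29 alternatives, 10 of them among the 18 that leave out 1 library (adjusted p 0.0115 to 0.0971). With no filter its adjusted p was 0.0513, so the number of the 10 genes called was 0. The F test of Ly75 was past the threshold in 22 of 27. Array weights, whose REML estimate stopped before it converged, raised the number of the 10 genes called to 6 in STZ vs Con (60.7% of all tested genes), 5 in A10 vs Con (37.1%), 5 in STZ-A10 vs STZ (27.03%), 6 in A10-FMT vs STZ (51.6%), 4 in Con-FMT vs STZ (38.8%), 6 in A10-FMT vs Con-FMT (65.96%), 6 for the averaged STZ difference (58.5%, 7552 genes), 4 for both transplants vs STZ (39.4%) and 10 among the 6 groups (97.8%, 12624 genes). Gene-by-gene weights, chosen after seeing the data, gave 5 and 9 of the 10 genes and 4969 (38.5%) and 9970 (77.3%) of all tested for the averaged difference and among the groups. Taking all 4 groups given STZ, also chosen later, gave 2 of the 10, Siglech and Ly75, and 392 (3.04%) of all tested.

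With a library left out, the number of the 10 genes called was 0 to 1 for the averaged STZ difference, 0 to 2 among the 6 groups and 0 to 3 in A10-FMT vs Con-FMT, where Ly75, Itgax and Flt3 were called without A10-FMT replicate 2, as were 20.4% of all tested genes. Over all tested genes it was 122 to 982 (426 as reported) and 4 to 814 (58 as reported). For the averaged difference, quantile normalization gave 689 genes, median centring 659 and scaling without globin genes 656. Among the groups, median centring gave 98 and scaling without globin genes 231. The cause was not tested.

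With the replicate number as a replicate block, 0 of the 10 genes and 21 of all tested passed among the groups (Ly75 adjusted p = 0.0530). Libraries with the same number correlated at -0.385 to 0.571 (14 of 45 pairs above 0.1), and 8 of 18 libraries were closest to their own number, so the number was not taken as a pairing.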
